A study of Mus musculus with 12 samples.

Results

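The 10 genes described here encode core parts of antigen presentation by the major histocompatibility complex (MHC). They were taken by symbol from the 40853 symbols of the deposited count tables, and all 10 were found. H2-K1, H2-D1, B2m, Tap1, Tap2 and Tapbp belong to the class I pathway, and H2-Aa, H2-Ab1, Cd74 and Ciita to the class II pathway. Their transcripts were measured by RNA sequencing in microglia and astrocytes of the mouse brain, each isolated by fluorescence-activated sorting. The mice were 8 to 9 weeks old and were wild type (WT) or labelled Kpna4 knockout (KO). Kpna4 encodes importin α4, a carrier of proteins into the nucleus. How the deletion was made is not stated in the labels. All animals had received lipopolysaccharide (LPS), a bacterial cell wall component, intraperitoneally at 1 mg/kg, 20 h before dissection, so every group is an inflamed group and no level here is a baseline. Each of the 4 groups, WT microglia, KO microglia, WT astrocytes and KO astrocytes, had 3 libraries, and each of the 6 animals gave 1 library of each cell type.

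MHC class I molecules are made of a heavy chain, encoded by H2-K1 or H2-D1, and the light chain β2-microglobulin, encoded by B2m. They display peptides from the cytosol to CD8 T cells. Tap1 and Tap2 form the transporter that brings those peptides into the endoplasmic reticulum, and Tapbp encodes tapasin, which holds the empty heavy chain beside the transporter. MHC class II molecules are heterodimers of an α chain, here H2-Aa, and a β chain, here H2-Ab1, and display endocytosed peptides to CD4 T cells. Cd74 encodes the invariant chain that guards the class II groove until loading, and Ciita encodes the transactivator on which class II transcription depends. Both pathways are induced by interferons, and in the healthy brain their expression is low.

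Among these genes, the promoters of the class I heavy chains, B2m and the class II chains are known for a shared module. In it an X box and a reversed CCAAT box (the Y box) lie at a fixed distance and bind the RFX, CREB and NF-Y factors. Promoter windows of 300 bases, 250 before to 50 after the annotated start, were matched by symbol in a RefSeq table of build GRCm38.p6 for 6 of the 10 genes, H2-D1, H2-K1, B2m, Tap1, Tapbp and H2-Aa. Tap2, H2-Ab1, Cd74 and Ciita had no matched entry. Of the 2 entries for H2-K1 the first was used. The 4 windows printed here are those with the paired module, shown because the genes behind them cover both classes. Capitals mark matches, on either strand, of the X2 core TGACG, the CCAAT box CCAAT, the κB-like site (GGG and CCC parted by 5 bases of any kind) and the interferon regulatory factor (IRF) element AANTGAAA.
H2-K1, chr17:34000298-34000597, minus strand: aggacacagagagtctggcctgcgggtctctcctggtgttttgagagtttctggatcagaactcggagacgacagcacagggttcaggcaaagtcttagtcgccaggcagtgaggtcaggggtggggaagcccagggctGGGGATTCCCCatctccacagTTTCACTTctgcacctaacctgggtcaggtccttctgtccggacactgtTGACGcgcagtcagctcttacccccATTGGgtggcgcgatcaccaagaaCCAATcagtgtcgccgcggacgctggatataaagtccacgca
H2-D1, chr17:35262844-35263143, plus strand: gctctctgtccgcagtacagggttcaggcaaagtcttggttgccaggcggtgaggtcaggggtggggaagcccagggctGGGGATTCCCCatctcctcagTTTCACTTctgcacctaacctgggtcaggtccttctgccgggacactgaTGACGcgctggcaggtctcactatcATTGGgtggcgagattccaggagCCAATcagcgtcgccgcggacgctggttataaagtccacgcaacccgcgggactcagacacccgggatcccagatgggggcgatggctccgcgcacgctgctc
B2m, chr2:122147437-122147736, plus strand: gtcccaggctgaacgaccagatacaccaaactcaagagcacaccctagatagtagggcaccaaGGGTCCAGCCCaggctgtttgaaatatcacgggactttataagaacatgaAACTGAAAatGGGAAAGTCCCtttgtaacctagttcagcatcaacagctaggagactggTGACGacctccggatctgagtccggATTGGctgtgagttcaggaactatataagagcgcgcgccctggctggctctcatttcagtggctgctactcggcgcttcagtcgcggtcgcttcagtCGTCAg
H2-Aa, chr17:34287774-34288073, minus strand: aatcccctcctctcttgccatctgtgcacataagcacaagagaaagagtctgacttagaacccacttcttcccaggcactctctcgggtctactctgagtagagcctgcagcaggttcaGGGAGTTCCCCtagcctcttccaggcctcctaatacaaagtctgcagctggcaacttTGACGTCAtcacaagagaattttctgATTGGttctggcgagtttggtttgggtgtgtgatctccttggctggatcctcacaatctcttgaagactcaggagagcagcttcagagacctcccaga

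TGACG followed by ATTGG, with a gap of 15 to 25 bases on 1 strand, was found in 4 of the 6 windows and in 0.435% of the 32851 promoter windows of that length in the table. The gap was 20 bases in H2-K1, H2-D1 and B2m and 21 bases in H2-Aa. The κB-like letters were in 5 of the 6 windows and in 14.0% of all windows, and the IRF element letters were in 3 of the 6, those of H2-K1, H2-D1 and B2m, and in 6.58% of all windows. TGACG alone was in 5 of the 6 windows against 20.8% of all, and CCAAT in 6 of 6 against 37.4%. The gamma-activated site TTCNNNGAA was in 0 of the 6 windows against 8.30% of all, which says only that these letters are not in these windows. In H2-Aa the 2 matches of TGACG, 1 on each strand, overlap each other. The motifs were chosen with the sequences in view, and a match is a description of letters, not of binding.

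**Figure D1:**
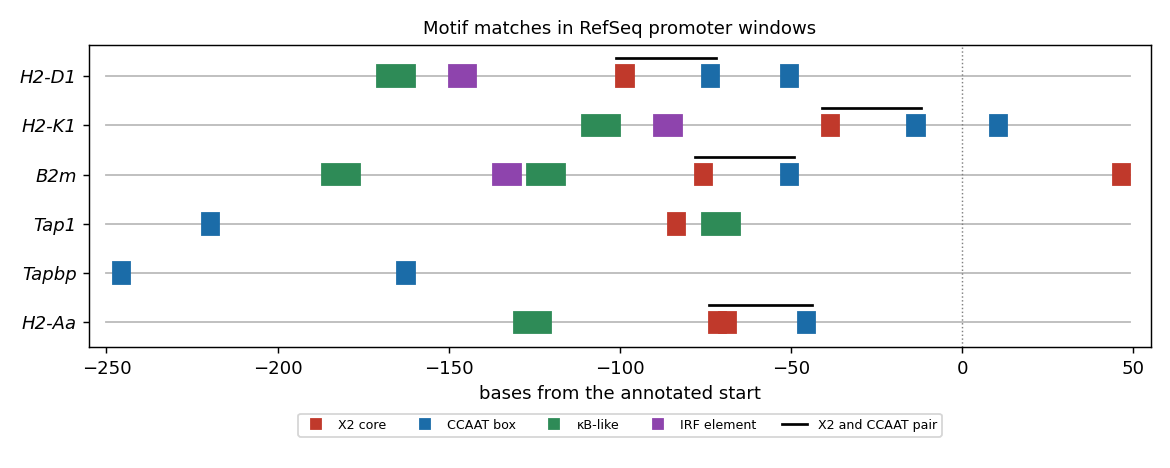
Motif matches in the promoter windows of the 6 genes with a RefSeq entry, by distance in bases from the annotated start. The distances rest on the start of the entry used. The pair lies at -41 to -12 in H2-K1 and at -101 to -72 in H2-D1, within similar sequence. Boxes are matches on either strand and the black bar spans the X2 core and the reversed CCAAT box, a pair seen in 4 of the 6 windows, 3 of class I genes and 1 of a class II gene.

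Library totals were 10319842 to 14520453 counts in microglia and 10744794 to 15575662 in astrocytes. The sorted cells carried the markers of their labels. Of 10 microglia markers the summed level was 13534 to 17455 in microglia, in CPM (counts scaled to a common library total), and 204 to 565 CPM in astrocytes, and of 10 astrocyte markers it was 18511 to 24486 CPM in astrocytes and 360 to 788 CPM in microglia. Kpna4 itself was at 59.8 to 96.4 CPM in microglia and 40.1 to 80.2 CPM in astrocytes, and WT and KO libraries overlapped in both (edgeR adjusted p 0.778 and 0.999). As the labels do not say which part of Kpna4 was removed, sums over the whole gene do not check the genotype labels, and KO below means the libraries labelled KO. As these are bulk samples, fewer cells of a type and less RNA per cell cannot be told apart. A group of 8 abundant non-coding transcripts took 11.8% to 15.4% of the counts in microglia and 26.2% to 39.5% in astrocytes, the highest share being in KO replicate 2.

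After LPS, all 6 class I genes were higher in microglia than in astrocytes, by 2.32-fold for Tap2 to 6.56-fold for B2m. Of the class II genes, H2-Ab1, Cd74 and Ciita were higher in microglia, and H2-Aa did not pass the test. Thus 9 of the 10 genes were called higher in microglia, and none lower, by edgeR's quasi-likelihood test on all 12 libraries at an adjusted p under 0.05. Over all 17294 genes tested 64.6% were called, 28.2% as higher in microglia, so a call by itself is common in this comparison. The median log2 fold change of the 10 genes was 1.75, while that of all genes was -0.19. Scaling by library total alone moved the median of all genes to 0.088 and left the same number of the 10 genes called.

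The light chain gene B2m was at 240, 344 and 590 CPM in the 3 WT microglia libraries and at 486, 419 and 649 CPM in the KO microglia. In astrocytes it was at 65.9, 33.6 and 69.8 CPM in WT and at 51.7, 48.02 and 70.2 CPM in KO. Every microglia library lay above every astrocyte library, and the log2 fold change of microglia over astrocytes was 2.71 (SE 0.24, edgeR adjusted p 1.26e-07).

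The heavy chain gene H2-K1 was at 528, 293 and 412 CPM in WT microglia and at 285, 249 and 279 CPM in KO microglia. In astrocytes it was at 112, 102 and 115 CPM in WT and at 82.1, 78.1 and 94.0 CPM in KO. The cell types did not overlap, and H2-K1 was 2.86-fold higher in microglia (SE of the log2 value 0.17, edgeR adjusted p 1.76e-06). The other classical heavy chain, H2-D1, was at 356, 220 and 517 CPM in WT microglia, 243, 287 and 399 CPM in KO microglia, 51.2, 31.5 and 95.2 CPM in WT astrocytes and 43.0, 27.6 and 72.1 CPM in KO astrocytes. It was 5.34-fold higher in microglia (log2 fold change 2.42, SE 0.29, edgeR adjusted p 3.46e-06). In both cell types and both genotypes the highest H2-D1 value belonged to replicate 3. So did the highest sum of 6 oligodendrocyte markers, at 592, 252 and 1688 CPM in WT microglia, 369, 284 and 719 CPM in KO microglia, 1614, 772 and 3807 CPM in WT astrocytes and 1094, 816 and 1691 CPM in KO astrocytes. The sum of the 6 class I genes was likewise lowest in replicate 2 and highest in replicate 3 of every group, from 1228 to 1949 CPM in WT microglia, 1225 to 1686 CPM in KO microglia, 287 to 427 CPM in WT astrocytes and 196 to 368 CPM in KO astrocytes. The part of oligodendrocyte RNA in these levels was not tested.

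Heavy chain genes have near-identical relatives in the H2-Q and H2-T regions, and reads matching several of them may have been divided between genes. Values of H2-D1 were not whole in 6 of 12 libraries, by at most 0.260 counts, and those of the other 9 genes were whole in every library at a tolerance of 0.001. With 9 heavy chain genes summed into 1 row, an alternative chosen after the data were seen, microglia were 3.99-fold higher (edgeR adjusted p 1.60e-07).

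The transporter and its partner followed the same order. Tap1 was at 131, 91.0 and 87.2 CPM in WT microglia, 77.3, 57.4 and 85.0 CPM in KO microglia, 24.97, 30.4 and 26.9 CPM in WT astrocytes and 12.3, 5.30 and 20.2 CPM in KO astrocytes, a 3.93-fold difference between cell types (edgeR adjusted p 5.35e-06). Tap2, the other subunit, was at 43.1 to 89.6 CPM in microglia and 14.1 to 35.8 CPM in astrocytes (2.32-fold, edgeR adjusted p 7.54e-05). Tapbp was at 170 to 268 CPM in microglia and 23.4 to 91.2 CPM in astrocytes (2.73-fold, edgeR adjusted p 3.72e-05). For none of these genes did a microglia library overlap an astrocyte library, as was so for 24.9% of all genes tested in the direction of microglia.

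**Figure D2:**
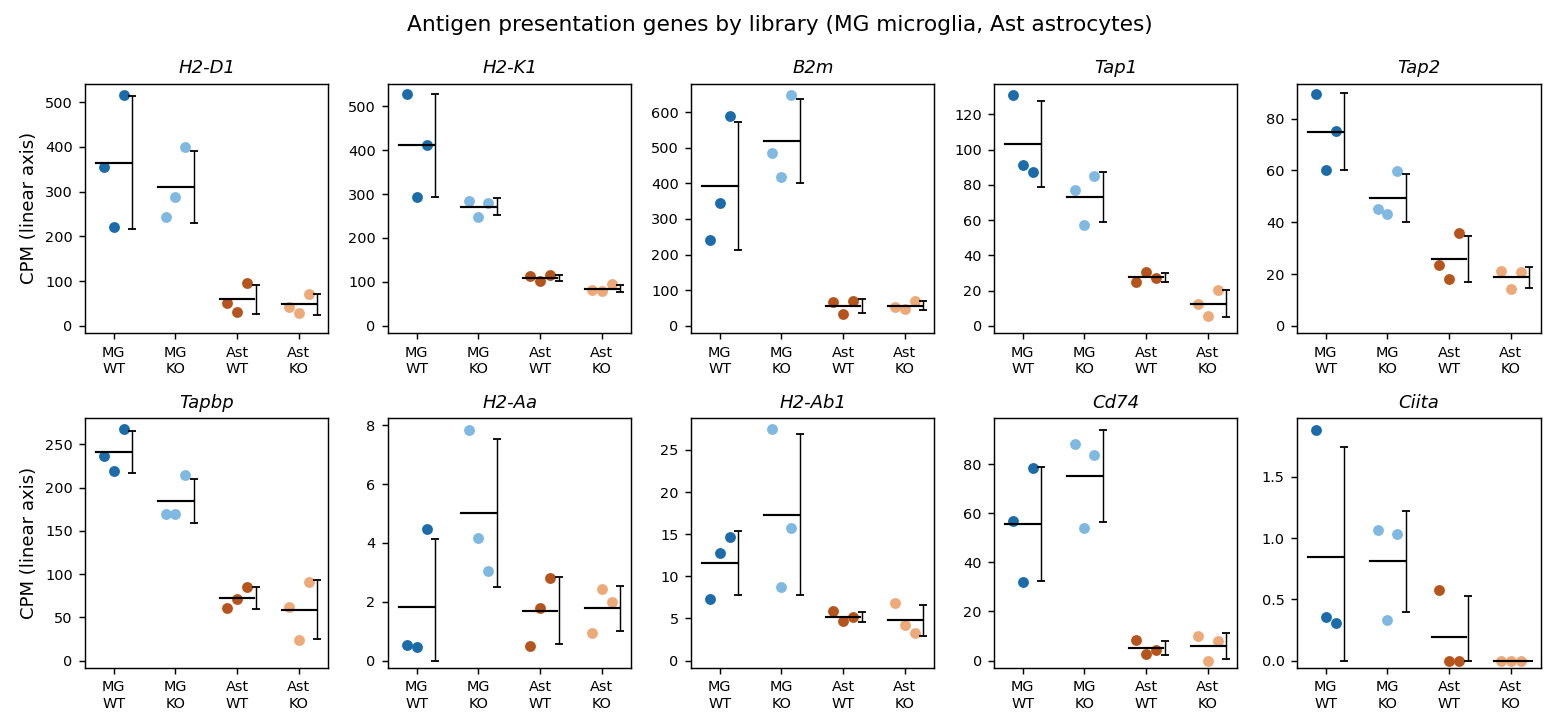
CPM of each gene in every library on linear axes that differ between panels, with 3 libraries per group (points, replicates 1 to 3 from left to right), the mean (line) and SD (bar, cut at 0). Class I genes reach 57.4 to 649 CPM in microglia apart from Tap2, which lies between 43.1 and 89.6, while H2-Aa and Ciita stay under 8 CPM in all 12 libraries.

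Of the 4 class II genes, H2-Aa, H2-Ab1 and Ciita were scarcer in microglia than every class I gene. The levels of Cd74 there overlapped those of Tap1 and Tap2. Cd74 was the most abundant of the 4, at 56.7, 32.1 and 78.4 CPM in WT microglia, 88.2, 53.9 and 83.8 CPM in KO microglia, 8.35, 2.76 and 4.38 CPM in WT astrocytes, and 10.03, 0 and 7.96 CPM in KO astrocytes. The 0 in KO astrocyte replicate 2 allows up to 3 counts. Cd74 was 9.94-fold higher in microglia on the fitted scale (log2 fold change 3.31, SE 0.57, edgeR adjusted p 0.000123).

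H2-Ab1, the β chain, was at 7.31, 12.7 and 14.7 CPM in WT microglia, 27.5, 8.70 and 15.8 CPM in KO microglia, 5.83, 4.63 and 5.20 CPM in WT astrocytes and 6.80, 4.19 and 3.27 CPM in KO astrocytes. It was 2.32-fold higher in microglia (edgeR adjusted p 0.00686), and no microglia library reached down to an astrocyte library. H2-Aa, the α chain, was at 0.528, 0.449 and 4.49 CPM in WT microglia, from 7, 5 and 59 counts, and at 7.85, 4.18 and 3.03 CPM in KO microglia. In astrocytes H2-Aa was at 0.504, 1.79 and 2.80 CPM in WT and 0.935, 2.42 and 1.99 CPM in KO. The cell types overlapped. The fitted log2 difference, 0.48 (SE 0.73, edgeR adjusted p 0.585), turned to -0.094 without WT replicate 3.

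Ciita was close to the detection limit. It had 25, 4 and 4 counts in WT microglia, 11, 4 and 15 in KO microglia, 8, 0 and 0 in WT astrocytes and 0 in each KO astrocyte library. Over both genotypes the pooled ratio of microglia to astrocytes was 8.36 (exact 95% interval 3.99 to 20.2, counting error only), and within KO it was at least 10.4 against a floor of 3 counts over the group. Its edgeR adjusted p was 0.0281, and the call rested on the setting: it was 0.0602 with the animal as a block, was also lost without a low-count filter and without WT replicate 2 or 3 or KO replicate 1 or 3, and ran from 0.00939 to 0.0775 over 13 alternatives.

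Levels of different genes were compared per kilobase of exon. The length was the union of all annotated exons of a gene in GENCODE vM21 (GRCm38), which may differ from the authors' annotation. Such a union can be longer than the main transcript, so the order depends on it. In WT microglia the order was B2m at 455 ± 209 CPM per kilobase, H2-D1 at 141 ± 57.6, H2-K1 at 140 ± 40.0, Tapbp at 66.5 ± 6.78, Cd74 at 33.2 ± 13.8, Tap2 at 19.8 ± 3.91, Tap1 at 18.8 ± 4.45, H2-Ab1 at 4.51 ± 1.49, H2-Aa at 0.480 ± 0.608 and Ciita at 0.0891 ± 0.0941 (SD, n = 3). H2-D1 and H2-K1, and Tap2 and Tap1, differed by less than their SDs, and the gap of H2-Aa to Ciita was smaller than the SD of H2-Aa. In WT astrocytes B2m led again, at 65.6 ± 23.1 CPM per kilobase, and H2-K1 followed at 37.3 ± 2.31 (SD, n = 3). There H2-D1 was at 22.98 ± 12.65 and Tapbp at 19.9 ± 3.40 CPM per kilobase, closer than their SDs. The class II β chain exceeded its α chain in mean level per kilobase in all 4 groups, and the gap was larger than either SD in all of them. The union lengths used were 2568 bases for H2-Ab1 and 3798 for H2-Aa, which widens this gap over that in CPM.

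**Figure D3:**
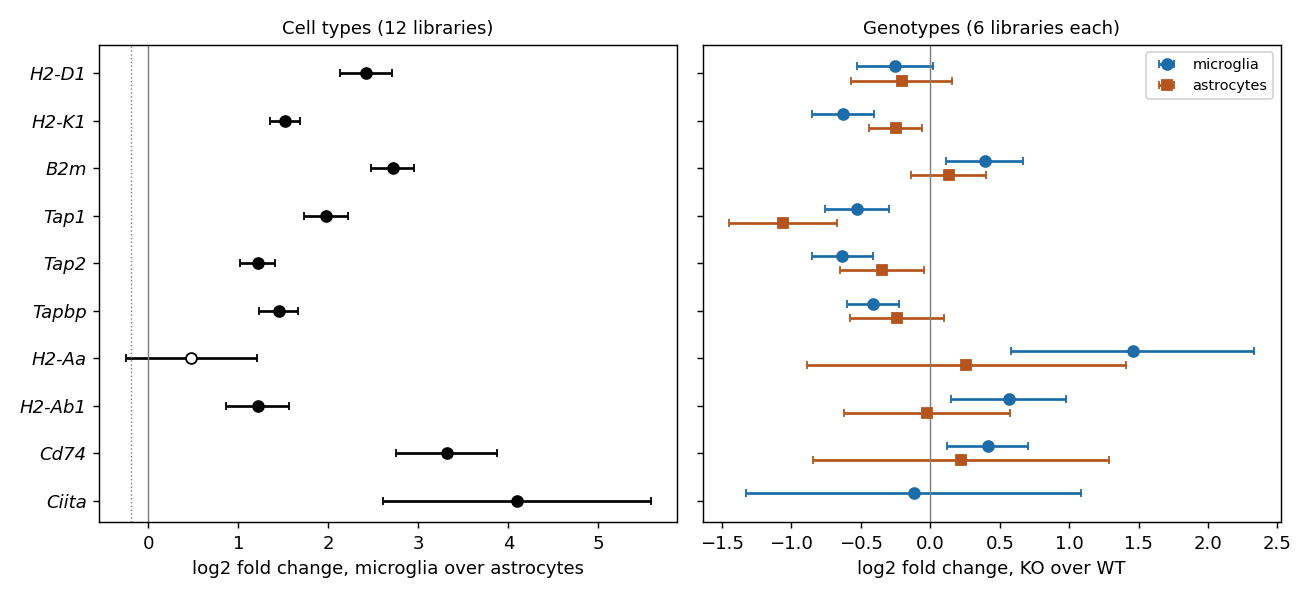
Fitted log2 fold changes with SE from edgeR for microglia over astrocytes (left, 12 libraries, filled where called, dotted line at the median of all genes) and for KO over WT in each cell type (right, 6 libraries each). On the left 9 of 10 genes are called, H2-Aa being open, and on the right none is called. Ciita is near the detection limit, so its fitted values depend on the prior count, and in astrocytes it was not tested.

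RNA from the other sorted population could add to a level, so the astrocyte level of each gene was set beside that of microglia markers in the same animals. The 10 microglia markers summed stood in astrocytes at 1.51% to 4.18% of the level in the microglia of the same animal, with a median of 2.33%. The class I genes summed stood at 16.04% to 23.4%, above the marker share in each of the 6 animals. B2m stood at a median of 11.1%, H2-K1 at 30.1% and Tap2 at 33.5%. Cd74 stood at 0% to 14.7%, with a median of 9.05%, H2-Ab1 at 20.8% to 79.7%, and H2-Aa at 11.9% to 399%. The largest H2-Aa shares, 95.4% and 399% in WT animals 1 and 2, divide by microglia levels of only 0.528 and 0.449 CPM. The class II processing genes varied in their shares. Ctss, a lysosomal protease that trims the invariant chain, stood at a median of 1.92%, and H2-DMb1, a subunit of the class II peptide exchanger, at 1.86%, whereas Lgmn, another lysosomal protease, stood at 5.32% and H2-DMa, the other exchanger subunit, at 11.6%. Thus the 6 class I genes, H2-Aa and H2-Ab1 lay above the summed markers in every animal, with the limit given for H2-Aa. Cd74 lay above them in every animal but KO animal 2, where it had 0 counts in astrocytes. The medians of these processing genes lay on both sides of the marker median. Other class II loading and processing genes spanned a wider range, with medians of 40.2% for H2-Eb1, 2.58% for Ifi30 and 0% for H2-Oa and H2-Ob. Sall1, itself among the microglia markers, stood at 6.54% to 13.3%, so the markers differ among themselves. Border macrophage markers summed stood at 3.27% to 17.5%, and the part of such cells in the astrocyte levels was not tested.

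**Figure D4:**
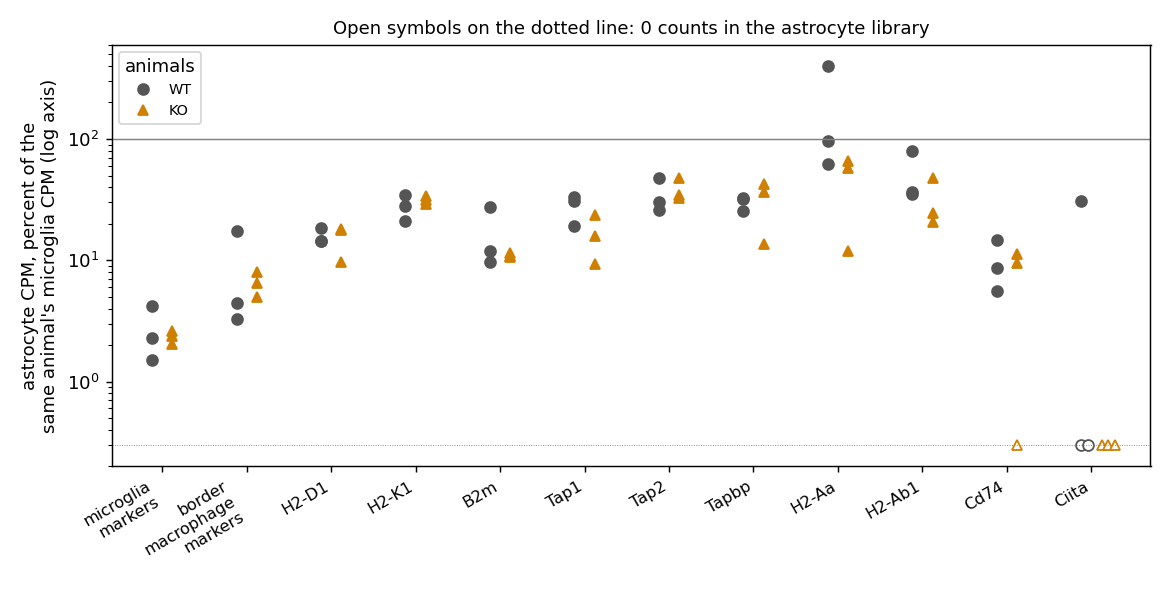
Astrocyte CPM as a percentage of the CPM in the microglia of the same animal, on a log axis, for 6 animals (circles WT, triangles KO). The 10 microglia markers summed lie between 1.51% and 4.18%, the class I genes between 9.24% and 47.6%, and H2-Aa between 11.9% and 399%; open symbols stand for 0 counts.

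Border macrophages and dendritic cells carry high class II levels, so their markers were listed in the microglia libraries. The 7 border macrophage markers, which include Mrc1, Cd163 and Lyve1, summed to 180 to 391 CPM in WT and 242 to 373 CPM in KO microglia, with none at 0. The summed level was 180, 338 and 391 CPM in WT and 373, 242 and 364 CPM in KO. The sum of the 4 class II genes was 66.4, 45.7 and 97.9 CPM in WT and 125, 67.1 and 104 CPM in KO. H2-Ab1 was lowest in WT replicate 1, where the border macrophage markers were also lowest, whereas Cd74, H2-Aa and the class II sum were lowest in WT replicate 2. All of them, and the markers, were highest in WT replicate 3. In KO the markers, the class II sum, Cd74 and H2-Ab1 were each lowest in replicate 2 and highest in replicate 1. H2-Aa was also highest in KO replicate 1 but lowest in KO replicate 3. The 7 dendritic cell markers summed to 14.3 to 16.7 CPM in WT and 7.36 to 12.7 CPM in KO microglia, and to 7.96 to 14.4 CPM in astrocytes. Among them Cd209a was at 0 in all 12 libraries and Zbtb46 was at 3.85 to 9.80 CPM in microglia. The part of these cells in the class II levels was not tested.

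Other genes of the pathway were taken from lists chosen with earlier results of these data known. Most showed the same order, whereas the genes for promoter-binding factors were mixed. Of 56 such genes 55 were tested, 46 were called higher in microglia, 2 lower and 7 not called (median log2 change 1.99). Beside these counts and those per list below, 28.2% of all genes tested were called higher in microglia and 64.6% in either direction. All 11 tested genes of class I loading and peptide supply were called higher. Psmb8 and Psmb9, which encode inducible proteasome subunits that cut peptides for class I, had log2 fold changes of 2.50 (SE 0.20) and 3.04 (SE 0.79). Of the other class I heavy chains 7 of 9 were called higher, led by H2-T24 (3.70, SE 0.35) and H2-M3 (3.38, SE 0.54). Mr1, which presents vitamin metabolites to specialised T cells, was the exception, at -1.85 (SE 0.30, edgeR adjusted p 7.75e-05), with 11.9 to 40.1 CPM in astrocytes and 4.45 to 11.3 CPM in microglia.

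In class II loading and processing 8 of 9 genes were called higher in microglia (median log2 change 4.86), and H2-Eb1, the other β chain, was not called (0.73, SE 0.62). H2-Oa and H2-Ob, which form an inhibitor of the class II peptide exchanger, had 692 and 705 counts over all microglia libraries. Over all astrocyte libraries they had 11 and 12, none of them in KO, so that within KO H2-Oa was at least 116-fold and H2-Ob at least 146-fold higher in microglia. Of 14 interferon signalling genes 12 were called higher, led by the transcription factor Irf8 (5.32, SE 0.32) and the interferon γ receptor subunit Ifngr2 (3.36, SE 0.15). All 5 tested T cell co-signalling genes were called higher, led by Cd86 (5.71, SE 0.45) and Cd80 (3.22, SE 0.99), ligands of CD28.

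Of 7 genes for factors that bind the promoter module, 3 were called higher in microglia, 1 lower and 3 not, and the median log2 fold change was 0.12. These counts stand beside 28.2% of all genes called higher and 64.6% called in either direction. Nfya, an NF-Y subunit that binds the CCAAT box, was at 103 to 190 CPM in microglia and 12.2 to 24.3 CPM in astrocytes (2.54, SE 0.22, edgeR adjusted p 1.28e-07), and Creb1, a factor of the X2 core, had a log2 fold change of 1.29 (SE 0.15). Rfxank, an RFX subunit, was lower in microglia (-0.75, SE 0.24, edgeR adjusted p 0.0125).

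**Figure D5:**
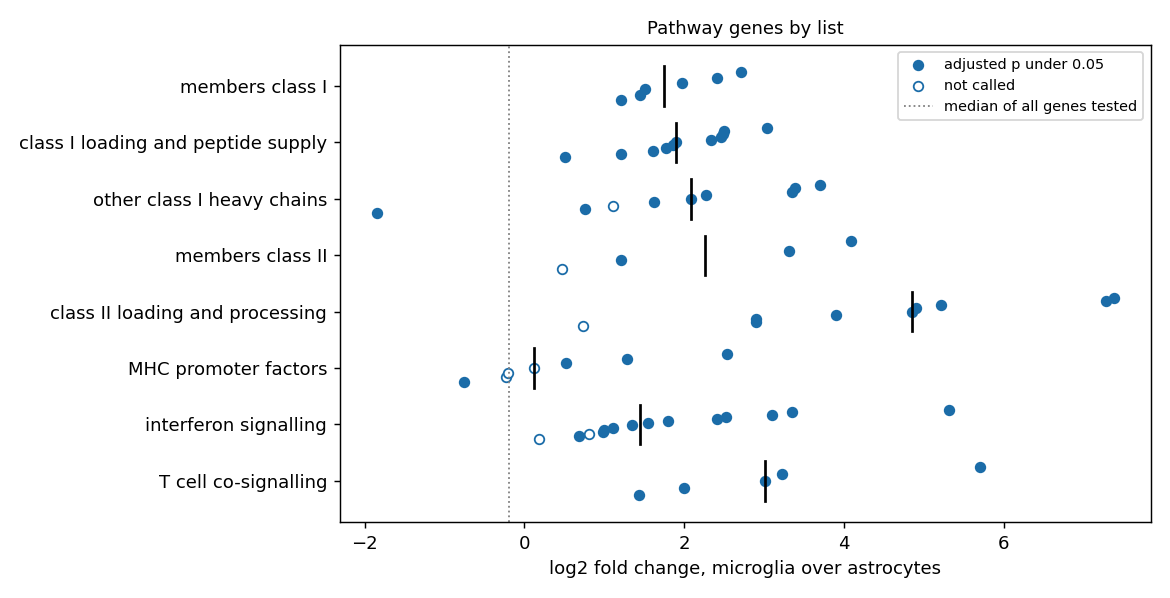
Log2 fold change of microglia over astrocytes for each tested gene, by list (filled, edgeR adjusted p under 0.05; open, not called; black line, median of the list; dotted line, median of all 17294 genes). Lists of class I and class II genes lie to the right of the dotted line apart from Mr1, at -1.85, and the MHC promoter factors straddle it.

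Between genotypes no gene passed the test in microglia. edgeR called 0 of the 10 genes and 0% of all 14191 genes tested, and DESeq2 and limma voom also called 0 of the 10. The class I genes other than B2m had lower values in KO and the class II genes other than Ciita had higher ones, each within a difference that did not pass. Mean summed markers of some other cell types were also lower in KO microglia. For choroid plexus and ependyma WT was at 1344 ± 687 and KO at 581 ± 265 CPM (SD, n = 3). In the same order, oligodendrocyte sums were 844 ± 751 and 457 ± 231 CPM. Endothelial sums were 45.9 ± 25.4 and 22.1 ± 4.67 CPM, and mural cell sums 19.5 ± 6.57 and 9.89 ± 6.12 CPM. Astrocyte, neuron, and monocyte and neutrophil sums were also lower in mean. The genotypes overlapped in each of these sums. Dendritic cell sums were lower without overlap, with means of 15.1 and 10.4 CPM. Border macrophage sums were higher in KO, with means of 303 and 326 CPM. So were those of B cells (2.99 and 4.25 CPM) and of T and natural killer cells (0.231 and 0.330 CPM), all with overlap. The part of these cells in the class I values was not tested. At an unadjusted p under 0.05 there were 4 of the 10, all lower in KO, where 7.42% of all genes were under that value and 5.07% were so and lower. These 4, H2-K1, Tap1, Tap2 and Tapbp, were also the genes whose 3 KO libraries all lay below the 3 WT libraries in CPM, as did 6.57% of all genes. Without WT replicate 1 there were 0 of the 10 genes under an unadjusted p of 0.05, without KO replicate 2 there was 1, and without WT replicate 3 there were 6.

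For H2-K1 the fitted log2 change from WT to KO was -0.63 (SE 0.22, edgeR adjusted p 0.587), and over 16 alternatives it ran from -0.82 to -0.38, the smallest with the heavy chains summed. In KO the 3 H2-K1 libraries spanned only 249 to 285 CPM, whereas WT spanned 293 to 528 CPM. For Tap2, at 89.6, 60.1 and 75.2 CPM in WT and 45.1, 43.1 and 59.9 CPM in KO, it was -0.63 (SE 0.22, edgeR adjusted p 0.587). The highest Tap2 value in KO lay just under the lowest in WT. For Tap1 it was -0.52 (SE 0.23, edgeR adjusted p 0.644), and -0.30 without WT replicate 1, the library with the highest Tap1. For Tapbp, at 237, 219 and 268 CPM in WT and 170, 170 and 214 CPM in KO, it was -0.41 (SE 0.19, edgeR adjusted p 0.665).

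H2-D1 and B2m overlapped between genotypes in microglia. The log2 fold change of H2-D1 was -0.25 (SE 0.27, edgeR adjusted p 0.870) and turned to 0.065 without WT replicate 3, the library with the highest H2-D1. That of B2m was 0.39 (SE 0.28, edgeR adjusted p 0.790), opposite in sign to the other class I genes, and ran from 0.14 without WT replicate 1 to 0.79 without WT replicate 3.

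The class II genes of microglia had wide errors between genotypes. The fitted log2 change from WT to KO was 1.46 for H2-Aa (SE 0.87, edgeR adjusted p 0.759), 0.56 for H2-Ab1 (SE 0.41, edgeR adjusted p 0.805) and 0.41 for Cd74 (SE 0.29, edgeR adjusted p 0.788). For H2-Aa the value rested on the WT libraries, of which replicates 1 and 2 were under 0.53 CPM and replicate 3 was at 4.49 CPM, above 2 of the 3 KO libraries. Without WT replicate 3 it was 3.29. For H2-Ab1 it fell to 0.074 without KO replicate 1, the library at 27.5 CPM. Ciita had no stable direction.

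In astrocytes edgeR called 0 of the 9 genes tested and 0% of all 15755, as DESeq2 and voom called 0 of the 9, and Ciita had too few counts to be tested. Only Tap1 was under an unadjusted p of 0.05, where 2.37% of all genes were and 1.24% were so and lower. Without WT replicate 2 or KO replicate 1 it was not. Its 3 KO libraries, at 12.3, 5.30 and 20.2 CPM, lay below its WT libraries, at 24.97, 30.4 and 26.9 CPM, a fitted log2 change of -1.06 (SE 0.39, edgeR adjusted p 0.999). It was -0.76 without KO replicate 2, the library at 5.30 CPM from 57 counts, and -1.53 without KO replicate 3. H2-K1 was likewise lower in every KO astrocyte library, as were 5.74% of all genes, at -0.25 (SE 0.19, edgeR adjusted p 0.999). The remaining 7 genes overlapped between genotypes, with log2 fold changes from -0.35 for Tap2 to 0.26 for H2-Aa. For Tapbp the value of -0.24 was 0.078 without KO replicate 2, where Tapbp was at 23.4 CPM against 61.6 and 91.2 CPM in the other KO libraries.

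Whether the genotype difference itself differed between cell types was tested as an interaction over all 12 libraries. Of the 10 genes 0 were called by edgeR, 0 were under an unadjusted p of 0.05, and 0 were called by DESeq2 or voom, where 0% of 17294 genes were called by edgeR and 6.37% were under an unadjusted p of 0.05. The difference, astrocytes minus microglia, was -0.43 for Tap1 (SE 0.47), 0.50 for H2-K1 (SE 0.33) and 0.39 for Tap2 (SE 0.39), against a median of 0.16 over all genes. The larger value of Tap1 in astrocytes was therefore not shown to differ from that in microglia.

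Among the other pathway genes none was called between genotypes in either cell type or for the interaction. In microglia 9 of 55 were under an unadjusted p of 0.05, 4 of them lower in KO, where 7.42% of all genes were under that value and 5.07% were so and lower. In astrocytes 4 of 50 were, 2 of them lower in KO, where 2.37% of all genes were and 1.24% were so and lower. Those with the smallest p in microglia were H2-Q6 and H2-Q4, non-classical class I heavy chains, at -1.58 (SE 0.43) and -0.77 (SE 0.32), and H2-DMa, the α chain of the class II peptide exchanger, at 0.61 (SE 0.23). The adjusted p of edgeR were 0.539, 0.628 and 0.599. H2-DMa was at 49.9, 39.6 and 73.7 CPM in WT and 81.4, 82.6 and 88.8 CPM in KO microglia, with no overlap, as for 6.53% of all genes in that direction. In astrocytes they were H2-Q4 at -1.24 (SE 0.34), Cd274, the inhibitory ligand PD-L1, at -1.11 (SE 0.41), and Ifnar2, a subunit of the type I interferon receptor, at 0.60 (SE 0.25), each with an edgeR adjusted p of 0.999. Cd274 was at 13.5, 11.7 and 16.2 CPM in WT and 5.95, 4.002 and 7.96 CPM in KO astrocytes, without overlap, as for 5.74% of all genes in that direction. H2-Q4 was at 19.6, 23.4 and 42.8 CPM in WT and 11.9, 8.47 and 12.9 CPM in KO astrocytes. For the interaction they were H2-Ob, Cd1d1 and H2-Oa (edgeR adjusted p 0.604, 0.709 and 0.781), genes with 0 counts in 2 or more KO astrocyte libraries.

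Within a cell type the class I genes did not all move together from library to library. After the mean of each cell type was subtracted from log2 CPM, the Pearson r with the mean of the 6 class I genes over the 12 libraries was 0.90 for Tapbp, 0.88 for H2-D1, 0.86 for Tap2, 0.81 for Tap1, 0.69 for H2-K1 and 0.34 for B2m, each gene being part of that mean. Of 14843 other genes the most alike were Pbxip1 (0.98), Ppp1r16a (0.96), Plekhh1 (0.96), Zfp536 (0.94) and Pacsin2 (0.94). For the mean of the 4 class II genes they were Fam228a (0.91), Atic (0.90), Zfp24 (0.89), Zfp558 (0.87) and Hscb (0.86), while Cd74 stood at 0.79 and H2-Aa at 0.39. The points share animals, genotype and library depth, and the highest of many values are high by selection, so these r are descriptions. The oligodendrocyte marker sum followed the class I sum in the same order of replicates in all 4 groups, and its part in these r was not tested.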

How the data were processed

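RNA was extracted with a column kit, amplified as full-length cDNA and made into Nextera libraries, per the labels' protocols. For each cell type the authors deposited 1 table of expected counts by gene symbol, not normalized, whose columns carry the name ending of RSEM's per-gene output, per the file headers. STAR 2.7.10b, RSEM 1.3.3, limma and the build GRCm39 are named in the submitters' processing notes. Annotation and strand setting: not given in the sources used here. All 12 columns were matched to libraries by name. No molecular identifiers were used, so counts hold amplified copies and intervals cover counting error only.

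Expected counts were rounded, CPM were taken per library total, and edgeR 4.0.16 (R 4.3.3) was fitted to the whole table with TMM factors and filterByExpr (minimum count 10), with Benjamini-Hochberg adjustment over all genes tested. Genotypes were compared within each cell type (6 libraries), and cell types and the interaction in 1 fit of 12 libraries, with no block. The SE is the log2 fold change over the square root of F. Scripts were tested on simulated data. Alternatives were DESeq2 1.42.0, limma 3.58.1 voom, other scalings and filters, blocks and left-out animals.

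The 10 genes and all lists were chosen with earlier results of these data known. The text names all 10 genes and Kpna4, per pathway list the 2 called genes with the largest positive and most negative change between cell types, for genotype and interaction the 3 genes of smallest unadjusted p, and the 5 genes most alike to each class. Other genes (Ctss, Lgmn, Ifi30, H2-DMb1, H2-Eb1, Sall1, Zbtb46, Cd209a, Mrc1, Cd163, Lyve1) were named after their values were seen. The labels number the animals, which ties each microglia library to 1 astrocyte library, and within such pairs the residuals around group means had correlations of 0.0041 to 0.096 over genes. No label pairs a WT with a KO animal.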

Additional observations from a re-analysis of the deposited data

How the results depend on the processing

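Among the 10 genes no setting called a genotype difference or an interaction, and no setting lost a cell type call except for Ciita. Of the log2 fold changes of the 10 genes under alternatives, 133 of 140 between cell types kept direction and side of the threshold, as did 145 of 150 between genotypes in microglia, 123 of 135 in astrocytes and 130 of 140 for the interaction. With a minimum count of 50 Ciita was not tested in any fit, nor H2-Aa in the astrocyte fit.

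The number of all genes called between genotypes in microglia, 0 in edgeR, was 41 by DESeq2, 121 when no filter was set, 41 in the fit of all 12 libraries and 0 to 2 with each replicate left out (2 without KO replicate 2). In astrocytes it was 4 with DESeq2, 17 without a filter and 0 to 1 with each replicate left out (1 without WT replicate 1), and for the interaction 62, 160 and 0 to 6 (1 without WT replicate 2, 6 without KO replicate 3). Blocking on replicate numbers gave 30 in microglia, all lower in KO, and 0 in astrocytes, against 0 in both when no block was set. Same-numbered WT and KO libraries correlated at 0.051 to 0.19 in microglia and -0.022 to 0.23 in astrocytes. Libraries of the same animal correlated at only 0.0041 to 0.096, so such values cannot decide whether the numbers are pairs. The numbers were not taken as pairs because no label ties a WT to a KO animal. With the replicate block in microglia, 6 of the 10 genes were under an unadjusted edgeR p of 0.05, against 4 without it. With the animal as a block, 8 of the 10 genes were called between cell types, against 9 without it, and 10400 of all genes against 11166, Ciita being the gene lost. The block changed no other call of these genes.

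Between genotypes in microglia the log2 fold change of Ciita was 0.090 with voom, 0.21 with the replicate block and -0.52 to 1.25 with each replicate left out, and that of H2-D1 was -0.51 to 0.065. In astrocytes Cd74 was at -0.0062 with voom, -0.58 with the replicate block and -0.33 to 0.79 with replicates left out. There, with replicates left out, B2m ran from -0.11 to 0.28, H2-D1 from -0.58 to 0.24, Tapbp from -0.67 to 0.078, H2-Aa from -0.20 to 0.74 and H2-Ab1 from -0.27 to 0.21. Between cell types H2-Aa ran from -0.094 to 0.94. For the interaction H2-D1 was at -0.082 by library total, -0.014 without the 8 abundant transcripts and -0.016 without a filter. With animals left out it ran from -0.23 to 0.28, B2m from -0.52 to 0.19, Cd74 from -0.59 to 0.40 and Tapbp from -0.23 to 0.42. The cause of these changes was not tested. Depth limits Ciita and H2-Aa, which had 0 to 25 and 5 to 81 counts per library.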

Other observations

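Per kilobase of exon, the ratio of B2m to the sum of H2-K1 and H2-D1 was 0.878, 2.17 and 2.01 in WT microglia and 2.96, 2.49 and 3.02 in KO microglia. In astrocytes it was 1.32, 0.833 and 1.07 in WT and 1.35, 1.497 and 1.36 in KO. In both cell types every KO library lay above every WT library in this ratio of light to heavy chain transcripts, and in KO animals every microglia library lay above every astrocyte library. In astrocytes the gap was narrow, 1.35 in KO replicate 1 against 1.32 in WT replicate 1. Both cell types came from the same animals. Of single genes tested in microglia, 6.53% were higher in KO without overlap, and no such share was computed for ratios. The ratio was formed after the values of its genes were seen, and no test is given.

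The ratio of Tap1 to Tap2 in CPM was 1.16 to 1.51 in WT microglia and 1.33 to 1.72 in KO microglia. In astrocytes it was 1.07, 1.67 and 0.750 in WT and 0.578, 0.377 and 0.978 in KO, so the genotypes overlapped in both cell types. All 3 KO astrocyte libraries lay under 1.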
